A study of Oryctolagus cuniculus with 20 samples.

Results

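HAS2 and CLU, grouped as synovial and surface genes, were followed in the jaw joint cartilage of rabbits. The markers given below do not settle that name. Both genes were read through every probe whose gene name, or gene symbol in the description, was HAS2 or CLU. This rule found 3 of the 43603 probes on the array, 2 for HAS2 and 1 for CLU, and all 3 passed the filter on dim probes. They make up 2 of the 847 genes that could be named on this array. No further probe carried the transcript record of either gene.

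HAS2 encodes hyaluronan synthase 2, a membrane enzyme that extrudes hyaluronan, the long sugar polymer that makes synovial fluid viscous and forms the coat around chondrocytes. In cartilage, hyaluronan anchors aggrecan, and proteins such as versican and TNFAIP6 bind it as well. CLU encodes clusterin, also called apolipoprotein J, a secreted chaperone that binds misfolded proteins, travels on lipoproteins and holds back the terminal complement complex. In bovine cartilage, clusterin is known as a product of the chondrocytes nearest the surface.

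Each level below is the brightness of a short oligonucleotide, 60 bases long, printed on the array. The CLU probe has 1 spot, 1 HAS2 probe has 5 spots and the other HAS2 probe has 1 spot. The files place the HAS2 pair on neighbouring stretches of 1 transcript without overlap, and they list all 3 probes as unmapped on the genome, so no chromosome position is given.

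The cartilage came from the mandibular condyle, the bony head of the lower jaw, of male rabbits 6 months old. Internal derangement, a disorder in which the joint's disc is displaced, was induced in the left joint by means the labels do not name, and tissue was taken after 1, 2, 4 or 8 weeks. Control rabbits had no treatment. Each of the 5 groups held 4 rabbits, 1 array for each, and total RNA was labelled with Cy3. No sham group is labelled and the same untreated rabbits serve at every time, so effects of the procedure, of elapsed time and of derangement cannot be told apart. In such bulk tissue, fewer cells of a type and less RNA per cell cannot be told apart either.

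The 75th percentile of the processed signal, used to scale each array, ran from 174.0 to 641.6, and the lowest was that of 1-week replicate 4. Each group was hybridised on a slide of its own, so slide and group cannot be told apart. The 1-, 4- and 8-week arrays were scanned on 1 day and the 2-week and control arrays on another, so a difference between these sets of groups cannot be told apart from scan day. The tissue label was checked with 9 chondrocyte markers, of which 4 had a probe (COL2A1, ACAN, SOX9, CNMD). COL2A1, the main collagen of hyaline cartilage, averaged 9.94 ± 0.94 after 1 week and 8.98 ± 0.50 in control (log2 level, SD, n = 4 each). The mean level of the 4 ran from 0.03 to 4.12 over all arrays. Markers of other tissues were bright too, with means of 6.08 to 6.81 for 6 of fibrous tissue and 7.56 to 8.61 for 4 of bone and osteoclasts. For 2 erythroid markers the mean ran from 4.79 to 8.40. These markers therefore do not settle the tissue label. Of 17 skeletal muscle markers 15 passed the filter, and their mean level ran from -4.52 to -2.61 on the arrays of deranged joints, against 1.69, 4.05, -1.15 and -2.01 in control replicates 1 to 4. Every CLU and HAS2 comparison with control rests on these 4 arrays, and the part of muscle RNA in it was not tested. With control replicates 1 and 2 left out, no HAS2 or CLU difference from control was called, and none changed its direction.

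Levels are log2 of the processed signal minus that of the array's own 75th percentile, so that 0 marks a probe as bright as that percentile. A probe was called between groups where limma, fitted on all 20 arrays and 5 groups, gave a Benjamini-Hochberg adjusted p under 0.05 over the 26905 probes kept.

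CLU was a bright transcript in every group and was brightest 8 weeks after derangement. Its level after 8 weeks lay 0.73 log2 units above that after 2 weeks, a 1.65-fold higher scaled signal. The 4 arrays of week 1 all lay below the 4 control arrays, and the 4 of week 8 lay above every array of the other derangement groups. Of these differences, the test over all probes called that of 8 against 2 weeks only.

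After 1 week the CLU level was 3.03, 3.28, 3.24 and 2.65 in replicates 1 to 4. After 2 weeks it was 3.71, 2.91, 3.18 and 3.32, and after 4 weeks 3.18, 3.73, 2.96 and 3.05. After 8 weeks it was 3.81, 3.95, 4.22 and 4.04, and in control 3.58, 3.42, 3.86 and 3.66. The groups of 1, 2 and 4 weeks overlapped one another, with 1 high array each in weeks 2 and 4 and 1 low array in week 1. Weeks 2 and 4 each overlapped control through that 1 high array, and week 8 overlapped control through its lowest array. In processed signal, the CLU spot ranged from 1090 on 1-week replicate 4 to 8250 on 8-week replicate 3, and it was well above background on all 20 arrays.

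**Figure D1:**
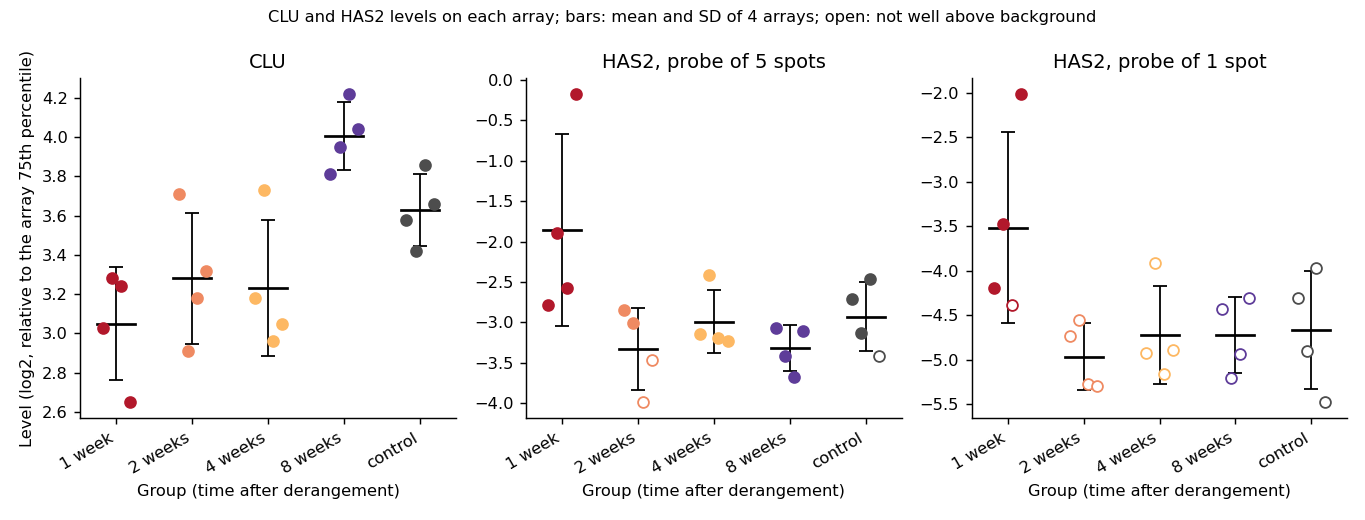
Level of each probe on each array (vertical axis, log2 relative to the array's 75th percentile) for CLU, the 5-spot HAS2 probe and the 1-spot HAS2 probe, by time after derangement with control at the right; lines and bars give mean and SD of 4 arrays, and open circles were not well above background. CLU is highest after 8 weeks (4.00 ± 0.17), and both HAS2 probes have their highest array, replicate 4, in week 1.

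The mean CLU level was 3.05 ± 0.29 after 1 week, 3.28 ± 0.33 after 2 weeks, 3.23 ± 0.34 after 4 weeks, 4.00 ± 0.17 after 8 weeks and 3.63 ± 0.18 in control (SD, n = 4 each). Any difference among the 5 groups was called for CLU by limma's F test (adjusted p = 0.011). Of all kept probes, 15.8% were called by that test. In order of level, the groups ran from 8 weeks through control, 2 weeks and 4 weeks down to 1 week, and no neighbours in that order differed by the test: 8 weeks against control by 0.38 (adjusted p = 0.216), 2 weeks against control by -0.35 (0.728), 4 weeks against 2 weeks by -0.05 (0.914) and 4 weeks against 1 week by 0.18 (0.743).

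Against control, limma called CLU at 0 of the 4 times, and at 1 of them, week 1, the unadjusted p was under 0.05 (0.00743). After 1 week its level was 3.05 against 3.63 in control, a log2 difference of -0.58 (SE 0.19, 95% confidence interval -0.98 to -0.18), and limma's adjusted p of 0.0523 missed the threshold. With arrays centred on their median it was -0.72 and called (0.0316). The 2 groups did not overlap, which gave an exact permutation p of 0.0286 (two-sided, n = 4 each), the smallest that 4 against 4 allows. Of all probes, 5.57% lay lower after 1 week without overlap, and 13.9% were called in either direction. Against control, 29.4% of all kept probes had an unadjusted p under 0.05 after 1 week. After 2, 4 and 8 weeks these shares were 7.75%, 23.8% and 27.5%. After 4 weeks the difference from control was -0.40 (SE 0.19, adjusted p = 0.212), and it was -0.51 and called with array quality weights (0.0401).

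Between times, CLU was higher after 8 weeks than after 2 weeks by 0.73 (SE 0.19, 95% confidence interval 0.32 to 1.13, limma adjusted p = 0.0245), with no overlap between the groups. In this comparison 8.62% of all kept probes were called, 4.88% as higher, and 9.93% lay higher without overlap. The difference was 0.60 to 0.87 when any 1 array was left out, and the call was lost without 2-week replicate 2 (adjusted p = 0.0783) or 3 (0.0545) and without 8-week replicate 3 (0.0732) or 4 (0.061). With normexp in place of the processed signal the difference was 1.07 and was not called (adjusted p = 0.165), and with centring on the median it was 0.55 and was not called either (adjusted p = 0.0972).

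CLU differences of 8 weeks from 4 and 1 weeks were larger but missed the threshold. CLU averaged 4.00 after 8 weeks and 3.23 after 4 weeks, a difference of 0.78 (SE 0.19, adjusted p = 0.0918). Set against 1 week, with 3.05, the 8-week level was higher by 0.95 (SE 0.19, 95% confidence interval 0.55 to 1.36, adjusted p = 0.0784). In both, all 8-week arrays lay above all arrays of the other group, as did 5.24% of probes for 8 against 4 weeks and 3.09% for 8 against 1 week. The same adjustment over all probes left few calls in these pairs, 0.558% of probes for 8 against 4 weeks and 0.0149% for 8 against 1 week. These 3 groups were scanned on 1 day, and with the fit restricted to that day the differences were again 0.78 (adjusted p = 0.178) and 0.95 (adjusted p = 0.172). Both were called after quantile normalization, at 0.91 (adjusted p = 0.03) and 1.06 (0.0399).

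**Figure D2:**
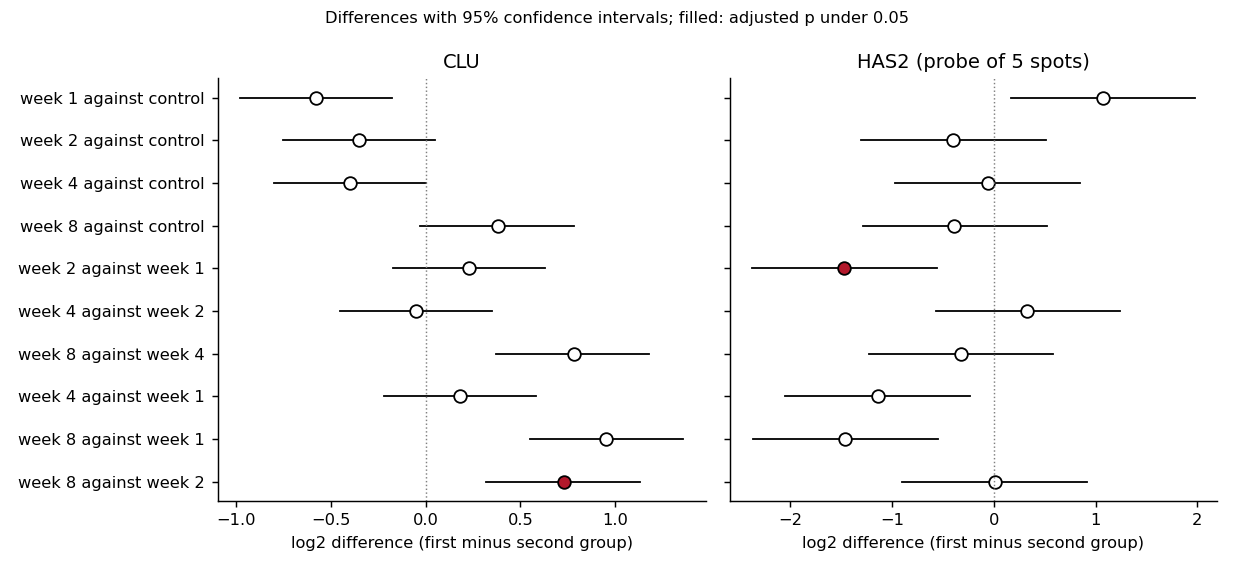
Log2 differences between groups (horizontal axis, first named minus second named) for CLU and for the 5-spot HAS2 probe in the 10 comparisons, with 95% confidence intervals; filled circles were called at an adjusted p under 0.05. CLU was called for week 8 against week 2 (0.73) and HAS2 for week 2 against week 1 (-1.47).

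HAS2 was a dim transcript, close to background on several arrays, and it was highest 1 week after derangement. Its level fell by 1.47 on the log2 scale at 2 weeks relative to 1 week, to 0.36 times the 1-week scaled signal, and no comparison with control was called. A single array, 1-week replicate 4, was far brighter for HAS2 than any other. The 5-spot probe, with the higher mean level, gives the values below, and the 1-spot probe is given after it.

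After 1 week the HAS2 level was -2.78, -1.89, -2.58 and -0.17 in replicates 1 to 4. After 2 weeks it was -2.85, -3.01, -3.99 and -3.47, and after 4 weeks -3.14, -2.41, -3.19 and -3.23. After 8 weeks it was -3.07, -3.42, -3.68 and -3.11, and in control -2.71, -3.13, -2.46 and -3.42. The 4 arrays of week 1 lay above all arrays of weeks 2 and 8, while 1 array of week 4 and 2 of control lay within the range of week 1. The probe was well above background on all arrays of weeks 1, 4 and 8, on 2 of 4 in week 2 and on 3 of 4 in control.

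The level of the bright 1-week array combines a high HAS2 signal with a low 75th percentile. Before scaling, the mean HAS2 signal of that array was 155, the highest of the 20 arrays, and the other 1-week arrays gave 66.4, 65.3 and 78.7. Its 75th percentile was the lowest, 174.0 against 456.4, 242.7 and 470.7 on 1-week replicates 1 to 3, which raised its level further. The signals were 65.7, 41.8, 23.3 and 27.3 after 2 weeks, 55.4, 75, 70.1 and 53.3 after 4 weeks, 41.8, 46.5, 34.8 and 55.6 after 8 weeks and 74.4, 43.5, 58.0 and 31.3 in control. In signal alone, 1-week replicates 1 to 3 lay close to 2-week replicate 1 and to the brightest control array, and 2-week replicates 3 and 4 were the dimmest of all.

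The 5 spots of the HAS2 probe show the spread between spots of a single array, and not that of labelling or scaling. The SD of log2 signal among the spots ran from 0.09 to 0.58 over the 20 arrays, with a median of 0.19, and 2 spots flagged as outliers were left out. Of the 98 spots used, 83 were well above background, and all spots were on 14 arrays. Between the rabbits of a group, the SD of the level was 1.19 after 1 week, 0.51 after 2 weeks, 0.39 after 4 weeks, 0.29 after 8 weeks and 0.43 in control. In the 8-week group, the single spots of replicates 1 and 2 differed more among themselves (SD 0.49 and 0.58) than the levels of the 4 rabbits did. These are unlike measures, since each rabbit's level is a mean over its spots.

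**Figure D3:**
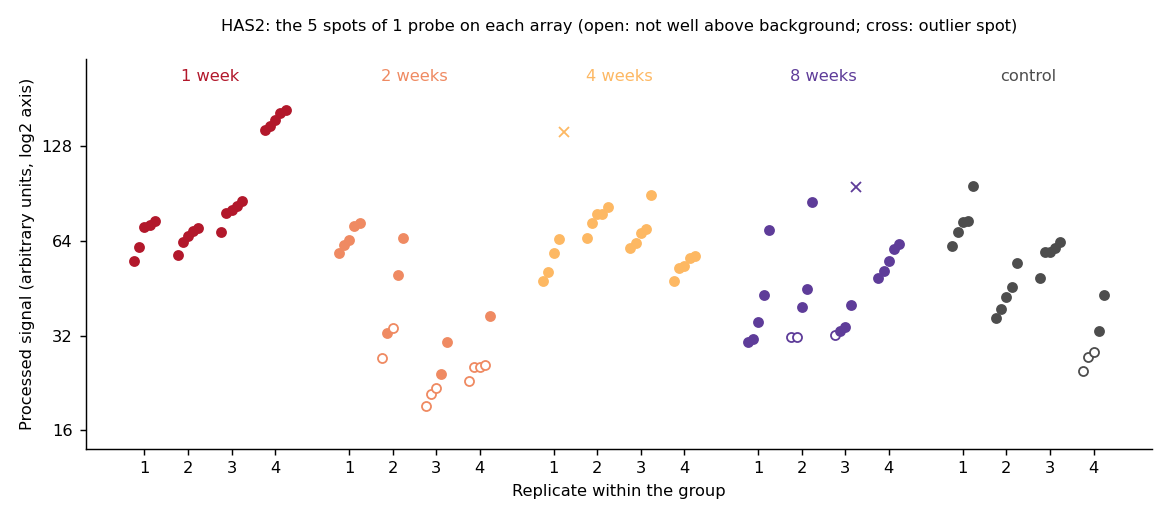
Processed signal of the 5 HAS2 spots (vertical axis, arbitrary units on a log2 scale) on each of the 20 arrays, by group and replicate; open circles were not well above background, and crosses mark the 2 outlier spots left out. The 5 spots of 1-week replicate 4, from 144 to 166, lie above every other spot used, and the dimmest array is 2-week replicate 3, from 19.1 to 30.6.

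The mean HAS2 level was -1.86 ± 1.19 after 1 week, -3.33 ± 0.51 after 2 weeks, -2.99 ± 0.39 after 4 weeks, -3.32 ± 0.29 after 8 weeks and -2.93 ± 0.43 in control (SD, n = 4 each). The F test over the 5 groups did not call HAS2 (adjusted p = 0.0861). In order of level, week 1 stood first, followed by control and 4, 8 and 2 weeks. None of these neighbours differed by the test: 1 week against control by 1.07 (adjusted p = 0.106), 4 weeks against control by -0.06 (0.952), 8 weeks against 4 weeks by -0.32 (0.793) and 8 weeks against 2 weeks by 0.01 (0.994).

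Relative to 1 week, HAS2 was lower after 2 weeks by -1.47 (SE 0.43, 95% confidence interval -2.38 to -0.56, limma adjusted p = 0.0352), with no overlap between the groups. Of all kept probes, 11.4% were called in this comparison, 7.46% as lower, and 9.06% lay lower without overlap. Without 1-week replicate 4 the difference was -0.91 (adjusted p = 0.0766), and the call was also lost without 1-week replicate 2 (0.064), 2-week replicate 3 (0.101) or 2-week replicate 4 (0.084). Normexp gave -0.34 (adjusted p = 0.888), and a fit on these 2 groups alone gave -1.47 (adjusted p = 0.194).

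The differences of the later times from 1 week were of like size for HAS2 but were not called. HAS2 averaged -3.32 after 8 weeks and -1.86 after 1 week, a difference of -1.46 (SE 0.43, adjusted p = 0.155) without overlap, as in 4.94% of probes that lay lower. After 4 weeks it lay -1.14 from the 1-week level (SE 0.43, adjusted p = 0.274), with overlapping groups. Both pairs were scanned on 1 day, and the fit on that day alone gave -1.46 (adjusted p = 0.251) and -1.14 (adjusted p = 0.394).

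Against control, HAS2 was higher by 1.07 after 1 week (SE 0.43, 95% confidence interval 0.17 to 1.98, adjusted p = 0.106), and 2 of the 4 arrays of week 1 lay above all control arrays. Limma called it at 0 of the 4 times, and at 1 of them, week 1, the unadjusted p was under 0.05 (0.023). Without 1-week replicate 4 the difference was 0.51 (adjusted p = 0.32), and without 1-week replicate 1 it was 1.38 and was called (adjusted p = 0.0405). It was 0.46 with array quality weights (adjusted p = 0.38) and 0.46 with normexp (0.862). After 2, 4 and 8 weeks HAS2 differed from control by -0.40 (adjusted p = 0.928), -0.06 (0.952) and -0.39 (0.612). The intervals of these 3 differences, -1.31 to 0.51, -0.97 to 0.85 and -1.29 to 0.52, leave room for a change of more than 1 log2 unit downward in 2 of them. The probes called against control made up 13.9% after 1 week, 0.453% after 2 weeks, 8.56% after 4 weeks and 12.8% after 8 weeks. After 1 week, 29.4% of all kept probes had an unadjusted p under 0.05.

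The 1-spot HAS2 probe was dimmer, and was well above background on 3 of 4 arrays in week 1 and on none in the other groups. Its level was -4.19, -3.47, -4.39 and -2.01 after 1 week, with replicate 4 again the highest. Since this probe passed the filter only through week 1, where it was high, its differences are given as a description with no test. After 2 weeks it had only a bound, and the 2-week signal was at least 1.2-fold lower than that of week 1 (measured means -4.97 and -3.52). Against control, week 1 was at least 1.23-fold higher (measured means -3.52 and -4.67). Across the 20 arrays the 2 HAS2 probes had a Pearson correlation of 0.95, each probe being read in the same hybridisations.

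HAS2 was highest in the week in which CLU was lowest, and 1-week replicate 4 was both the highest array for HAS2 (-0.17) and the lowest for CLU (2.65). Over the 20 arrays their levels had a Pearson correlation of -0.39 and a Spearman correlation of -0.15, a description over arrays that share scaling and groups.

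Other genes of hyaluronan metabolism were read from a list of 22 genes (synthases, hyaluronidases, receptors and matrix binders). Only 7 had a named probe, and 5 passed the filter, namely HAS2, HYAL2, TNFAIP6, VCAN and ACAN. PRG4, which encodes the surface lubricant lubricin, the synthase HAS1, the receptor CD44 and the hyaluronidase HYAL1 had no probe under these names. HAS3, the third synthase, was well above background on 1 array after 1 week and 1 after 8 weeks and did not pass the filter. Among the binders, 2 changed in a single comparison each.

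ACAN, the aggrecan core protein that hyaluronan anchors, fell in the same comparison as HAS2. Its level was -3.00, -2.40, -2.33 and -2.89 after 2 weeks, against -1.93, -1.26, -1.91 and 0.11 after 1 week, a difference of -1.41 (SE 0.39, limma adjusted p = 0.0253). All 2-week arrays lay below all 1-week arrays, as in 9.06% of probes, and the highest value was again that of 1-week replicate 4. Without that array the ACAN difference was -0.95, and the call was lost without 1-week replicate 2 or 4 or 2-week replicate 1 or 4 (highest adjusted p 0.0702).

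VCAN, which encodes versican, a large hyaluronan-binding proteoglycan of looser matrix, fell after 4 weeks relative to control. Its level was -1.64, -2.61, -1.76 and -2.82 after 4 weeks, against -0.99, 0.00, -0.61 and -1.27 in control, with no overlap, as in 5.86% of probes that lay lower (difference -1.49, SE 0.38, limma adjusted p = 0.0214). The VCAN difference was -1.68 to -1.25 with 1 array left out, and the call was lost without 4-week replicate 2 or 4 or control replicate 2 or 3 (highest adjusted p 0.0796). Against control VCAN differed by -1.06 after 1 week (adjusted p = 0.0736), -0.39 after 2 weeks (0.914) and -1.07 after 8 weeks (0.0731). HYAL2, a hyaluronidase anchored at the cell surface, stayed between 1.81 and 2.05 in its group means and was called in none of the 10 comparisons. TNFAIP6, the secreted protein that links heavy chains to hyaluronan, averaged -0.75 ± 1.19 after 1 week and 0.56 ± 0.56 in control (difference -1.31, SE 0.60, adjusted p = 0.156).

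Of the 5 kept hyaluronan genes, 0 rose and 2 fell (HAS2 and ACAN) in 2 against 1 week, where 7.46% of all kept probes were called lower and their median difference was -0.01 beside 0.02 over all kept probes. After 4 weeks 1 of 5 fell against control, with a median of -0.06 beside 0.03, where 2.19% of all kept probes were called lower. In the other 8 comparisons limma called 0 of the 5, and at an unadjusted p under 0.05 it gave 4 after 1 week and 2 after 8 weeks against control, 3 in 4 against 2 weeks, 1 in 4 against 1 week, 2 in 8 against 1 week and 0 in the remaining 3. Of all kept probes, that unadjusted threshold was passed by 29.4% after 1 week and 27.5% after 8 weeks against control, 19.0% in 4 against 2 weeks, 12.3% in 4 against 1 week and 14.6% in 8 against 1 week. In the remaining 3, it was passed by 7.75% after 2 weeks against control, 13.0% in 8 against 4 weeks and 23.1% in 8 against 2 weeks. Of all kept probes, 1.07% were called in 4 against 1 week and 4.3% in 4 against 2 weeks.

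The list around clusterin held 34 genes of lipoproteins, their receptors, plasma carriers and the complement pathway, CLU included. Of these, 21 had a probe and 17 passed the filter. In no comparison were more than 4 of the 17 called. APOA1 passed only through week 1 and APOC4 only through weeks 1, 4 and 8, the groups where each is high, so nothing is read from the counts that hold them. Against control 3 were called higher (APOA1, APOC4, C9) and 1 lower (HP) after 1 week, with a median difference of 0.36 beside 0.02 over all kept probes, of which 9.71% were called higher and 4.21% lower. After 2 weeks limma called 0 of the 17, beside 0.453% of all kept probes, and 1 had an unadjusted p under 0.05, beside 7.75%. After 4 weeks 2 rose (APOC4, C9), beside 6.38% of all kept probes, and after 8 weeks 3 rose (APOC4, C9, LCAT), beside 8.46%. The list's medians were -0.06 after 2 weeks, 0.02 after 4 weeks and -0.08 after 8 weeks, beside 0.04, 0.03 and 0.04 over all kept probes. Between times, APOC4 and APOA1 were called lower in 2 against 1 week, beside 7.46% of all kept probes. APOC4 was called higher in 4 against 2 weeks, where 4.3% were called in either direction, and CLU and APOC4 in 8 against 2 weeks, beside 4.88% called higher.

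APOC4, a minor apolipoprotein of very low density lipoprotein, was called in 6 of the 10 comparisons. It was well above background on all arrays of weeks 1, 4 and 8, on 1 of 4 in week 2 and on none in control. With no filter on dim probes its 6 calls were kept. Its level was -2.03, -0.70, -1.93 and -0.22 after 1 week, -4.08, -3.53, -3.68 and -4.06 after 2 weeks, -1.90, -1.39, -2.16 and -1.90 after 4 weeks and -1.84, -2.23, -2.22 and -2.18 after 8 weeks, against -4.30, -3.85, -3.40 and -3.57 in control. The arrays of weeks 1, 4 and 8 lay above week 2 and control without overlap, a split that runs with scan day and cannot be told apart from it. The share of all probes with this split is not given here. In 8 against 2 weeks alone, 9.93% of probes lay higher without overlap. Against control APOC4 was at least 5.51-fold higher after 1 week, at least 3.6-fold after 4 weeks and at least 2.96-fold after 8 weeks. These APOC4 calls and differences are a description, since the filter kept the probe only through weeks 1, 4 and 8, where it is high.

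C9, the complement component that clusterin binds in the terminal complex, rose by 0.75 after 1 week (SE 0.13, limma adjusted p = 0.0007), 0.75 after 4 weeks (0.00116) and 0.67 after 8 weeks (0.00244) relative to control. Its means were -1.13 ± 0.14 after 1 week, -1.48 ± 0.02 after 2 weeks, -1.14 ± 0.05 after 4 weeks and -1.22 ± 0.11 after 8 weeks, against -1.88 ± 0.33 in control. All C9 arrays of weeks 1, 4 and 8 (-1.34 and above) lay above those of week 2 and control (-1.47 and below). As for APOC4, this split runs with scan day and cannot be told apart from it, and its share over all probes is not given here. LCAT, which esterifies the cholesterol of high density lipoprotein, rose by 1.00 after 8 weeks (means -1.15 ± 0.20 and -2.16 ± 0.66 in control, adjusted p = 0.0243), although its highest control array, at -1.18, lay within the 8-week range. The LCAT call was lost without 8-week replicate 1 or 3 or control replicate 1, 2 or 3 (highest adjusted p 0.0913). The C9 calls against control were kept with any 1 array left out.

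APOA1, the main protein of high density lipoprotein, was well above background on 3 of 4 arrays after 1 week and on 1 of the other 16. After 1 week its level was -5.28, -2.46, -3.33 and -0.44, at least 1.91-fold higher than in control, and after 2 weeks it was at least 1.87-fold lower than after 1 week. These APOA1 differences are a description, since the filter kept the probe only through week 1. HP, the haemoglobin-binding plasma protein haptoglobin, fell after 1 week, with 1.01, 1.93, 1.81 and 1.38, against 4.20, 4.85, 2.23 and 3.12 in control (difference -2.07, SE 0.65, adjusted p = 0.0441). The HP call was kept in 12 of 20 fits with 1 array left out, and was lost without any 1-week array, control replicate 1 or 2, 2-week replicate 3 or 8-week replicate 4 (highest adjusted p 0.141). APOE, a further lipoprotein component, was called in no comparison, with group means between -1.66 and -0.29.

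The calls of ACAN, VCAN and the clusterin list depended on the background correction. With normexp none of the 15 calls of these 7 genes beside HAS2 and CLU was kept. The APOA1 and APOC4 calls among them are counted as a description only, since the filter kept both only through groups where they are high. With control replicates 1 and 2 left out, the arrays with the most muscle signal, the difference from control was no longer called for VCAN after 4 weeks (-1.27), for APOA1 (2.79) or HP (-1.14) after 1 week, or for LCAT (0.61) or APOC4 (1.37) after 8 weeks. The C9 calls were kept without these arrays, at 0.60 after 1 week (limma adjusted p = 0.00359), 0.60 after 4 weeks (0.0063) and 0.52 after 8 weeks (0.0145). Scan day cannot be told apart from group in these C9 differences.

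**Figure D4:**
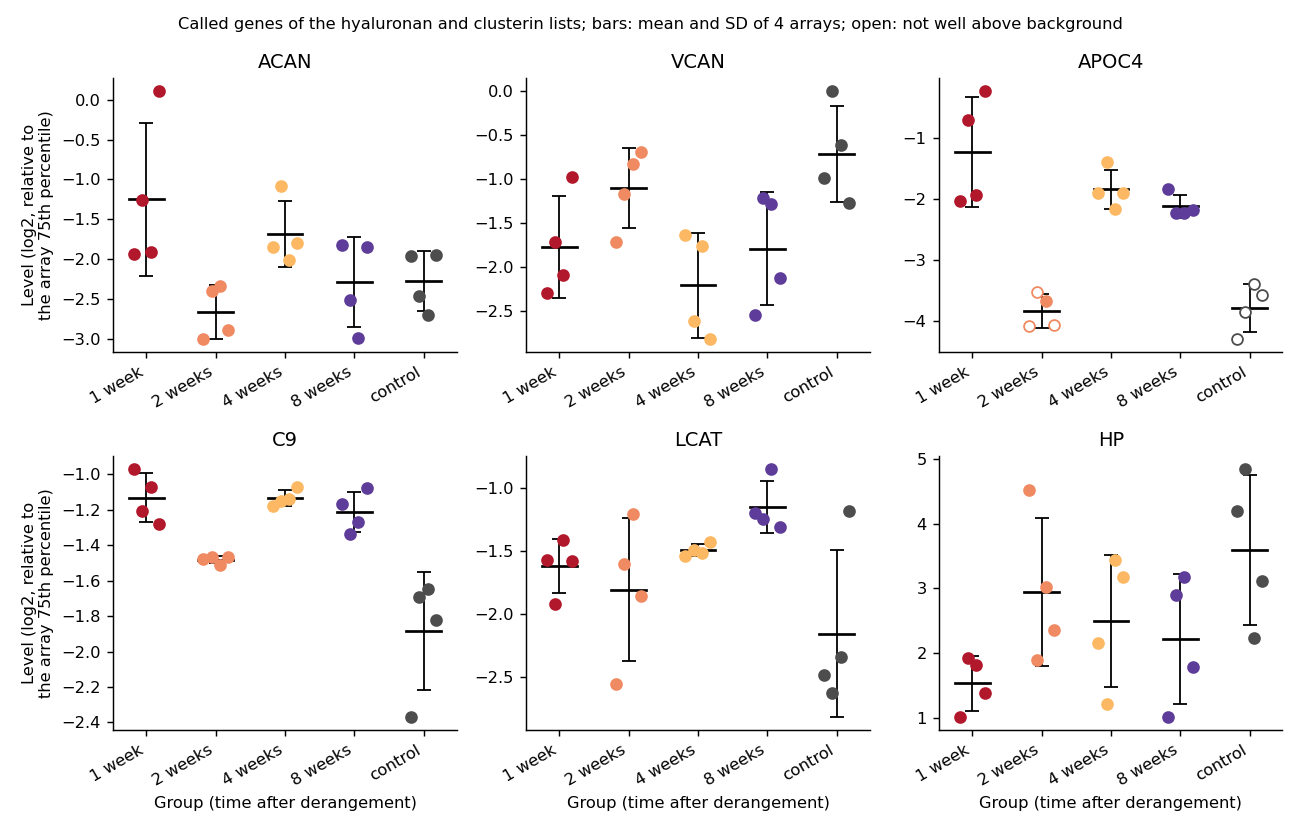
Levels on each array (vertical axes, log2 relative to the array's 75th percentile) of 6 called genes of the hyaluronan list (ACAN, VCAN) and the clusterin list (APOC4, C9, LCAT, HP), by group with control at the right; lines and bars give mean and SD of 4 arrays, and open circles were not well above background. ACAN has its highest array in week 1 (0.11), and APOC4 is at or below -3.40 on every 2-week and control array.

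Chondrocyte markers were lower in the same comparison as HAS2. The mean level of the 4 chondrocyte genes was 0.57, 1.14, 1.30 and 0.20 after 2 weeks, against 1.56, 2.34, 2.30 and 4.12 after 1 week, where replicate 4 was again the highest. In 2 against 1 week, 3 of the 4 were called lower, namely ACAN, which both lists hold, SOX9 and CNMD, beside 7.46% of all kept probes. COL2A1, with a difference of -1.40 (adjusted p = 0.0845), was not called. Of 6 markers of the synovial lining, only VCAM1 and TNFAIP6 had a probe, so that the name of HAS2 and CLU as synovial and surface genes could not be checked with PRG4. The mean level of VCAM1 and TNFAIP6 was -1.11, 0.24, 0.53 and 0.69 after 2 weeks, against -1.07, -0.96, -0.62 and -3.72 after 1 week. The array with the highest HAS2 level was thus the lowest for these 2 markers, and neither was called. The part of chondrocyte or lining RNA in the HAS2 and CLU differences was not tested.

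Genes with a like pattern were ranked by Pearson correlation with each member over the 20 arrays, among the 628 other named genes that passed the filter. These correlations describe arrays that share groups, scaling and, for HAS2, the single bright array. For HAS2 the 5 highest were SLC1A5 (0.90), a glutamine transporter, JPH1 (0.87), a junctional membrane protein of muscle, RPS6KB1 (0.87), a ribosomal protein S6 kinase, KCNA2 (0.84), a potassium channel subunit, and APOA1 (0.84). APOA1 was well above background on 4 of 20 arrays only. The filter kept it only through week 1, where HAS2 was highest too, so its rank and correlations are a description only. The lowest were AGTR1 (-0.92), the angiotensin II receptor, and GHR (-0.87), the growth hormone receptor.

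Without 1-week replicate 4 the HAS2 correlations were 0.65 for SLC1A5, 0.75 for JPH1, 0.59 for RPS6KB1, 0.58 for KCNA2, 0.60 for APOA1, -0.79 for AGTR1 and -0.80 for GHR. The AGTR1 level on that array was -4.68, whereas its group means outside week 1 ran from -0.58 to 0.25. With the group means taken out, SLC1A5 and AGTR1 had correlations of 0.89 and -0.93 with HAS2, values that include 1-week replicate 4. Without the 2 arrays farthest from the HAS2 median, the correlations were 0.55 for SLC1A5, 0.70 for JPH1, 0.42 for RPS6KB1, 0.39 for KCNA2 and 0.38 for APOA1. For AGTR1 and GHR they were -0.70 and -0.72.

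For CLU the 5 highest were CTSD (0.75), the lysosomal protease cathepsin D, ATP1B2 (0.73), a sodium pump subunit, SLC4A2 (0.73), an anion exchanger, HMOX2 (0.69), a haem oxygenase, and CKB (0.68), the brain-type creatine kinase. The lowest were CBS (-0.64), cystathionine beta-synthase, and COL3A1 (-0.64), a fibrillar collagen. CTSD averaged 1.01 after 1 week, 1.28 after 2 weeks, 1.18 after 4 weeks, 1.60 after 8 weeks and 1.37 in control, the same order of groups as in CLU. ATP1B2 was well above background on 5 of 20 arrays only. With the group means taken out, the CLU correlation was 0.51 for CTSD and 0.34 for ATP1B2, and without 1-week replicate 4 they were 0.67 and 0.77. Without that array the CLU correlation was 0.63 for SLC4A2, 0.63 for HMOX2, 0.53 for CKB, -0.59 for CBS and -0.35 for COL3A1. Without the 2 arrays farthest from the CLU median it was 0.58 for CTSD, 0.74 for ATP1B2, 0.55 for SLC4A2, 0.49 for HMOX2 and 0.37 for CKB. For CBS and COL3A1 it was then -0.45 and -0.18.

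**Figure D5:**
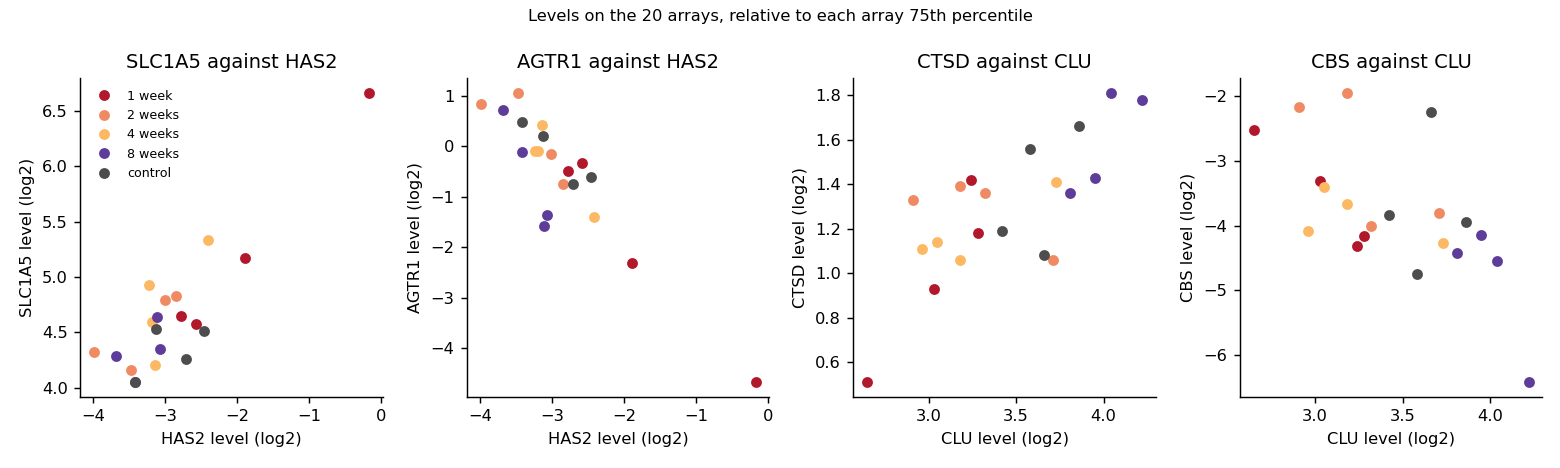
Level of the gene most like and least like each member (vertical axes, log2 relative to the array's 75th percentile) against the member's own level (horizontal axes, same scale) on the 20 arrays, coloured by group. For HAS2, the 1-week array at -0.17 stands apart in both plots, with SLC1A5 at 6.66 and AGTR1 at -4.68.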

How the data were processed

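One-colour arrays of condylar cartilage from 20 rabbits, 4 in each of 5 groups taken from the sample titles, were analysed, and each array counts as 1 animal. The deposited values used were spot intensities on a linear scale. Per the file headers, Agilent Feature Extraction 10.7.1.1 read the scans and subtracted background to give the processed signal, and its flags mark spots well above background, saturated spots and outliers. The authors' value table, also intensity, served as an alternative. It matched its own array in 16 columns, whereas all 4 columns for 8 weeks matched a different array of the same group, which leaves replicate numbers there uncertain. Its column medians ran from 28.3 to 90.2, on the linear scale of the scanner values with no centring. Depth does not apply to arrays, and the number of arrays limits the precision.

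Outlier spots were left out, spots of a probe averaged, the array's 75th percentile taken as scale, and log2 taken. Probes well above background on at least 3 of 4 arrays of a group were kept (26905 of 43603). limma 3.58.1 in R 4.3.3 fitted 5 group means, two-sided, with Benjamini-Hochberg adjustment over all kept probes, and every adjusted p in the text is limma's. The script was tested on simulated data. Single values were tested by exact permutation. Where a group had a probe above background on no array, a fold is a bound. It sets the bright group's mean against the dim group's, where each dim array enters with the dimmest level well above background or with the measured level if that is brighter. A gene's main probe is its kept probe of highest mean level. Names came from the files and from RefSeq gene names of rabbit assembly mOryCun1.1 through transcript accessions, which named 2464 probes. Probe sequences are not reported here.

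Genes named are HAS2 and CLU, called members of the 2 gene lists, a few fixed hyaluronan genes and APOE, and the 5 most and 2 least correlated named genes. The genes and lists were chosen with earlier results of these data known. Alternatives were normexp with an offset of 50, median centring, quantile normalization, the value table, 2 other filters, fits on fewer groups or 1 scan day, each array left out, 2 control arrays left out, array weights, replicate numbers as a block, and the other HAS2 probe. Replicate numbers showed no clear pairing of the arrays: over 40 same-numbered pairs, deviations from the group means had correlations from -0.33 to 0.39, 8 of them over 0.1. Since the 8-week replicate numbers are uncertain, this check could not exclude pairing for that group.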

Additional observations from a re-analysis of the deposited data

Results flagged for a closer look

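Of 50 checks of a gene's 4 arrays in a group, 2 found an array whose gap to the nearest of the others exceeded the limit of Dixon's test for 4 samples, no more than the 1 in 20 that chance gives. They were HAS2 on 4-week replicate 2, at -2.41 for the 5-spot probe, and APOC4 on 8-week replicate 1, at -1.84. The bright HAS2 array of week 1, at -0.17, did not exceed that limit.

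Called differences between derangement groups are differences between 2 times in the distance from the shared control. For HAS2 this was -1.47 in 2 against 1 week, and for ACAN -1.41 in the same pair. For CLU it was 0.73 in 8 against 2 weeks. APOA1 and APOC4 are listed as a description only, since the filter kept them only through groups where they are high. In 2 against 1 week the measured APOA1 difference was -2.52, but no 2-week array was well above background and only the bound of at least 1.87-fold lower holds. The measured APOC4 difference was -2.62 in 2 against 1 week, 2.00 in 4 against 2 weeks and 1.72 in 8 against 2 weeks. Each pair holds the 2-week group and therefore sets arrays of 1 scan day against arrays of the other, so that time and scan day cannot be told apart in them.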

How the results depend on the processing

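Under alternatives other than leaving out 1 array, 211 values of the HAS2 and CLU results kept direction and call. Another 12 turned their sign, 8 lost a call and 6 gained a call. The values of the 1-spot HAS2 probe are in these counts as a description only. They cannot check a HAS2 call, since the filter kept that probe only through week 1, where it was high. The called HAS2 difference of 2 against 1 week and the called CLU difference of 8 against 2 weeks kept their sign under every alternative run. With normexp, HAS2 was 0.13 in 2 weeks against control, -0.34 in 2 against 1 week (no longer called), -0.47 in 4 against 2 weeks and -0.53 in 8 against 2 weeks, while CLU was -0.05 in 2 against 1 week, 0.29 in 4 against 2 weeks and 1.07 in 8 against 2 weeks (no longer called), with an F test adjusted p of 0.225. With median centring, HAS2 was -0.17 in 8 against 2 weeks, and CLU was -0.72 in 1 week against control (now called) and 0.55 in 8 against 2 weeks (no longer called). With quantile normalization, HAS2 was -1.36 in 2 against 1 week (no longer called) and -0.18 in 8 against 2 weeks, and CLU was 0.03 in 4 against 2 weeks, 0.91 in 8 against 4 weeks and 1.06 in 8 against 1 week (both now called). HAS2 in 2 against 1 week was -1.47 and not called with no filter on dim probes (adjusted p = 0.0529), with only the 2 groups fitted (0.194) and without control replicates 1 and 2 (0.0501). With array weights CLU was -0.51 in 4 weeks against control, 0.88 in 8 against 4 weeks and 0.84 in 8 against 1 week (all now called), -0.01 in 2 against 1 week and -0.04 in 4 against 1 week. HAS2 in 8 against 2 weeks was 0 in the authors' table and in 8 against 4 weeks 0 on the other probe. That probe was well above background on no array of either of these groups. The cause of these changes was not tested.

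Leaving out 1 array at a time moved HAS2 from 0.51 to 1.38 in 1 week against control (called without 1-week replicate 1), from -0.26 to 0.09 in 4 weeks against control, from -1.78 to -0.91 in 2 against 1 week, from -0.21 to 0.17 in 8 against 2 weeks, and its F test adjusted p from 0.0403 to 0.157. It moved CLU from -0.65 to -0.44 in 1 week against control (called without 2-week replicate 1 or 2 or 4-week replicate 2), from -0.22 to 0.09 in 4 against 2 weeks, from 0.69 to 0.94 in 8 against 4 weeks (called without 1-week replicate 4 or 4-week replicate 2) and from 0.60 to 0.87 in 8 against 2 weeks. With the replicate number as a block, HAS2 in 2 against 1 week was -1.47 (adjusted p = 0.0489) and CLU in 8 against 2 weeks 0.73 (0.042), and no HAS2 or CLU call changed. HP in 1 week against control was lost (0.0704). Of the 15 other calls, of ACAN, VCAN, APOA1, APOC4, C9, LCAT and HP, normexp lost 15, fitting only 2 groups 6, leaving out control replicates 1 and 2 lost 5, array weights 2 (ACAN at -0.79, HP at -1.92), and quantile normalization, no filter and the block 1 each (HP), while median centring and the authors' table lost 0. The APOA1 and APOC4 calls among these 15 are counted as a description only. In the check of replicate numbers, 4 of 20 arrays correlated best with their own number. Both that check and the block use the 8-week replicate numbers, which are uncertain.

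Over all kept probes, 3061 were called in 2 against 1 week (50 with normexp to 3875 with median centring) and 2319 in 8 against 2 weeks (33 with normexp to 3796 with array weights). Normexp gave the lowest counts against control too, 61 in place of 3745 after 1 week, 0 in place of 122 after 2 weeks (581 at an unadjusted p under 0.05), 30 in place of 2304 after 4 weeks and 42 in place of 3433 after 8 weeks, and 0 to 15 in place of 4 to 1158 in the other pairs (0 in 8 against 1 week, where 1282 had an unadjusted p under 0.05). The highest counts against control after 2, 4 and 8 weeks were 377, 5028 and 5579, with array weights. Median centring moved the median of all probes to 0.17 and -0.17 in these pairs and turned the split of calls, with 2309 higher and 1566 lower in place of 1055 and 2006 for 2 against 1 week, and 936 higher and 2462 lower in place of 1313 and 1006 for 8 against 2 weeks. Signal over background limits HAS2, whose 5-spot probe had mean processed signals of 23.3 to 155, with 83 of 98 spots well above background.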
